A study of Mus musculus with 28 samples.

Results

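The genes described here are the vitamin D receptor gene Vdr and 7 genes whose products act with the receptor on DNA: the heterodimer partners Rxra and Rxrb, the coactivators Ncoa1, Ncoa2, Ncoa3 and Med1, and the corepressor Ncor1. They were chosen by symbol, and all 8 were found in both tables, among 31179 symbols for duodenum and 30227 for kidney cortex (34135 in all). RNA was sequenced from 28 tissue samples of female mice aged 8 weeks. In each tissue there were 4 libraries from Vdr-/- mice, whose allele the file headers call demay, 4 from Vdr AF2 mice and 6 from wild-type Vdr+/+ mice. Vdr-/- mice lack a working receptor, and AF2 stands for activation function 2, the part of the receptor that binds coactivators. Mice of all 3 genotypes ate the same TD.96348 diet, which the headers call a rescue diet and the design text describes as rich in calcium, phosphate and lactose. The sources used here do not give the strain, the exact AF2 edit or whether both tissues came from the same mice, and p-values measure the spread between these samples.

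The vitamin D receptor binds its hormone and sits on DNA as a heterodimer with a retinoid X receptor. Hormone binding folds the last helix of the receptor over its ligand pocket and forms the activation function 2 surface, which takes up coactivators such as the p160 family (Ncoa1, Ncoa2 and Ncoa3) and the Mediator subunit Med1, whereas Ncor1 belongs to the complexes that bind unliganded or repressing receptors. In duodenum the receptor is known for driving active calcium absorption, and in kidney for calcium reabsorption and for the control of vitamin D hormone synthesis and breakdown. The design sets loss of the receptor and loss of its coactivator surface against the normal receptor, and the question taken up here is whether the receptor's own transcript and those of its partners differed with genotype and tissue.

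The activation function 2 helix lies at the very end of the receptor, so the end of the coding sequence is shown first. In the mm10 genome build, with GENCODE vM21 annotation, the Vdr gene spans 97854425 to 97910630 of chromosome 15 (minus strand). The sequence below covers codons 404 to 423 (chr15:97857372-97857431, minus strand, inside the last exon), with the stop codon in capitals. It is the reference sequence, and neither mutant allele is drawn on it.
Vdr end of coding sequence: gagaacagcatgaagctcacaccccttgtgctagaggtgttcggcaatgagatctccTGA

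Coactivators dock on that surface through short leucine boxes: a leucine, any pair of residues, then a pair of leucines. The reference coding sequences were read in frame on the coding strand for a leucine codon (CTN, TTA or TTG), any 2 codons and 2 further leucine codons. There were 7 such boxes in Ncoa1, 4 in Ncoa2, 6 in Ncoa3, 2 in Med1 and 1 in Ncor1, and 0 in Vdr, Rxra and Rxrb. Of 21501 coding genes, 1.02% had at least as many as Ncoa1, 5.14% as Ncoa2, 1.6% as Ncoa3, 20.4% as Med1 and 45.1% as Ncor1, so 1 or 2 matches are common. The boxes of the central receptor interaction region of the p160 coactivators, and both boxes of Med1, are given here with leucine codons in capitals (mm10).
Ncoa1 codons 637 to 641 (chr12:4295423-4295437, minus strand): CTAgtacagCTATTG
Ncoa1 codons 694 to 698 (chr12:4295252-4295266, minus strand): CTGcaccggCTTTTA
Ncoa1 codons 755 to 759 (chr12:4295069-4295083, minus strand): CTAcgctacCTTTTA
Ncoa2 codons 641 to 645 (chr1:13174538-13174552, minus strand): CTCctgcagCTGCTG
Ncoa2 codons 690 to 694 (chr1:13174391-13174405, minus strand): TTGcacagaCTCTTA
Ncoa2 codons 745 to 749 (chr1:13174226-13174240, minus strand): CTGcgctatTTGCTC
Ncoa3 codons 613 to 617 (chr2:166055127-166055141, plus strand): CTGctgcagTTACTC
Ncoa3 codons 677 to 681 (chr2:166055319-166055333, plus strand): TTGcacaagTTGCTG
Ncoa3 codons 729 to 733 (chr2:166055475-166055489, plus strand): CTTagatacCTGCTG
Med1 codons 604 to 608 (chr11:98158145-98158159, minus strand): CTTaccagtTTGTTG
Med1 codons 645 to 649 (chr11:98158022-98158036, minus strand): CTCatgaacCTTCTT

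Libraries were of the QuantSeq type, which reads transcripts near their 3′ ends, and values are deposited counts scaled by library size to CPM, the usual unit of counts relative to the library total. Levels of 1 gene can be compared between libraries, but levels of different genes are not compared. Duodenal libraries held 3713352 to 25181916 counts, with Vdr+/+ 2 deepest and the next at 6519522, and kidney libraries 3725648 to 6492228. The tissues matched their labels: the summed level of 7 enterocyte markers was 8500 to 18345 CPM in duodenum and 63.9 to 84.0 CPM in kidney, and that of the proximal tubule markers was 0.334 to 13.3 CPM in duodenum and 4368 to 5821 CPM in kidney. Markers of pancreatic acini summed to 56.0 to 14034 CPM across duodenal libraries and to at most 1.81 CPM in kidney. The library codes form runs of consecutive numbers, with Vdr+/+ 1 and 2 apart, Vdr-/- beside Vdr+/+ 3 and 4, and Vdr AF2 beside Vdr+/+ 5 and 6, in both tissues. The labels do not say what a run stands for. Vdr AF2 kidney 4 stood apart from its group: the chi-square per degree of freedom between its counts and those of the other 3 libraries was 10.1 to 10.6, against 1.96 to 2.92 among those 3. Vdr+/+ kidney 1 also differed from its group, with values of 5.57 to 9.30 against 2.36 to 5.87 among the others. Its immune cell markers summed to 798 CPM, against 73.7 to 107 CPM in the other Vdr+/+ kidneys.

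In duodenum, Vdr was low in all Vdr-/- libraries and within the wild-type range in all Vdr AF2 libraries. It stood at 120.2, 114, 97.3 and 112 CPM in Vdr-/- 1 to 4 and at 408, 432, 362 and 388 CPM in Vdr AF2 1 to 4. In the 6 Vdr+/+ libraries it was 267 CPM at the lowest, 476 CPM at the median and 646 CPM at the highest. The Vdr-/- libraries did not overlap either other group, and each Vdr AF2 library lay inside the Vdr+/+ range.

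Vdr fell in duodenum of Vdr-/- mice, which averaged 111 ± 9.72 CPM (SD, n = 4), against 487 ± 149.6 CPM in Vdr+/+ mice (SD, n = 6). The log2 fold change was -2.14 ± 0.20 (SE), with an adjusted p of 2.54e-05 by edgeR's quasi-likelihood test. Vdr was the member called, 1 of 8, where 0.0226% of all genes tested (3 of 13302) were called and 2.2% had groups that did not overlap. The count over all genes moved with single libraries and with the processing: without Vdr+/+ 4, which had the lowest Vdr level of its group, 229 genes were called in Vdr-/- duodenum and 217 in Vdr AF2 duodenum, and with no filter on low counts 215 and 240 were called with all libraries kept.

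Between Vdr AF2 and Vdr+/+ duodenum no difference in Vdr was detected. Vdr AF2 libraries averaged 398 ± 29.7 CPM (SD, n = 4), and the log2 fold change was -0.29 with a 95% interval of -0.68 to 0.09 (edgeR adjusted p = 0.566). None of the 8 members was called there, against 0.0677% of all genes. No member had an unadjusted p under 0.05 or groups that did not overlap either, against 11.8% and 2.73% of all genes, and DESeq2 and limma-voom also called 0 members. Vdr was higher in Vdr AF2 than in Vdr-/- duodenum by 1.84 on the log2 scale (95% interval 1.41 to 2.28, edgeR adjusted p = 0.000492), the single member called where 0.015% of genes were called and the single one without overlap, against 6.56% of genes.

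In kidney cortex the 3 genotypes separated completely. Vdr was at 22.1, 21.0, 17.1 and 7.94 CPM in Vdr-/- 1 to 4 and at 81.7, 85.0, 91.9 and 64.8 CPM in Vdr AF2 1 to 4. In the Vdr+/+ libraries it was 177 CPM at the lowest, 200.5 CPM at the median and 212 CPM at the highest. No library of 1 genotype reached the range of another, and all Vdr AF2 libraries lay between the Vdr-/- and the Vdr+/+ libraries. The lowest of the Vdr AF2 values, 64.8 CPM, was that of the library that stood apart, and without it the log2 fold changes of Vdr AF2 were -1.20 against Vdr+/+ and 2.35 against Vdr-/- kidney, both called by edgeR.

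Vdr fell in kidney of both mutants. Vdr-/- kidneys averaged 17.0 ± 6.44 CPM (SD, n = 4) and Vdr+/+ kidneys 197 ± 15.7 CPM (SD, n = 6), and the log2 fold change was -3.54 ± 0.20 (SE, edgeR adjusted p = 1.62e-10). Vdr AF2 kidneys averaged 80.9 ± 11.5 CPM (SD, n = 4), and the log2 fold change was -1.29 ± 0.17 against the same Vdr+/+ libraries (SE, edgeR adjusted p = 6.16e-05). Vdr was higher in Vdr AF2 than in Vdr-/- kidney by 2.26 ± 0.20 on the log2 scale (SE, edgeR adjusted p = 1.29e-06). In each of these 3 comparisons Vdr was 1 of 8 members called, where 0.844% of genes were called for Vdr-/- against Vdr+/+, 2.71% for Vdr AF2 against Vdr+/+ and 0.333% for Vdr AF2 against Vdr-/-. Groups that did not overlap made up 3.44%, 4.73% and 7.16% of genes in those comparisons in the same order.

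**Figure D1:**
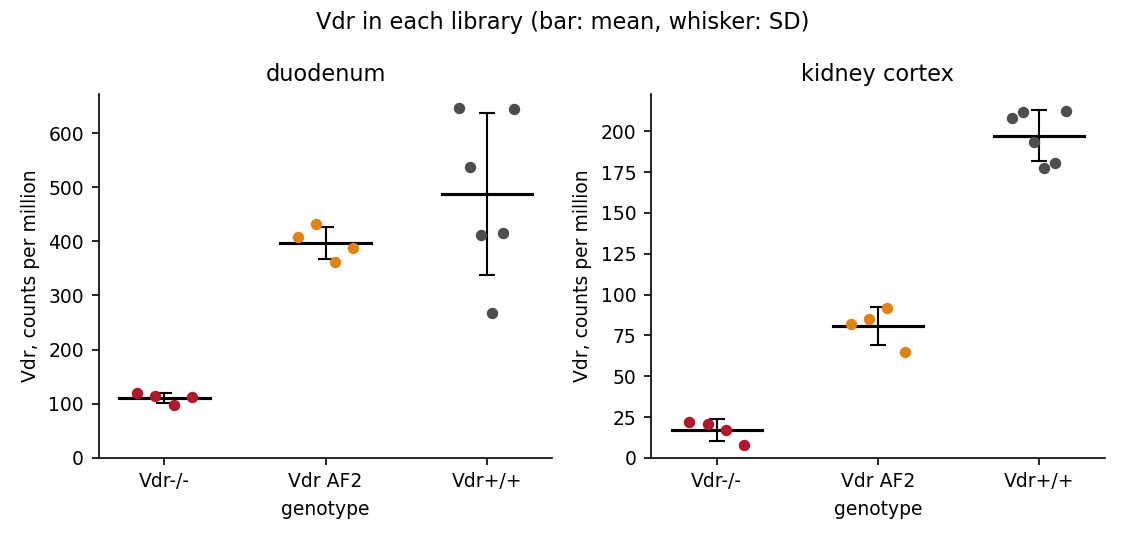
Vdr level in CPM in each library (points), by genotype, in duodenum (left) and kidney cortex (right), with mean (bar) and SD (whisker); n = 4 Vdr-/-, 4 Vdr AF2 and 6 Vdr+/+ in each tissue. The Vdr AF2 points lie within the Vdr+/+ range in duodenum (362 to 432 CPM) and below it in kidney (64.8 to 91.9 CPM).

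Set against the Vdr+/+ mean of the same tissue, Vdr-/- libraries held 22.8 ± 2.00% in duodenum and 8.64 ± 3.27% in kidney (SD, n = 4 each). The corresponding values for Vdr AF2 libraries were 81.7 ± 6.09% and 41.0 ± 5.83% (SD, n = 4 each). The Vdr+/+ libraries spread by 30.7% of their mean in duodenum and by 7.96% in kidney (SD, n = 6 each). Deposited Vdr counts ran from 450 to 490 in Vdr-/- duodenum and from 42 to 116 in Vdr-/- kidney, where the counting error is largest.

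The difference between the tissues in these effects was tested in a fit of all 28 libraries and did not pass. For Vdr-/- against Vdr+/+ the duodenal log2 fold change of Vdr exceeded the kidney one by 1.37 ± 0.29 (SE, 95% interval 0.77 to 1.96), with an unadjusted p of 6.6e-05 and an edgeR adjusted p of 0.0704, ranking 14 of 14944 genes. For Vdr AF2 against Vdr+/+ the excess was 0.97 ± 0.28 (SE, 95% interval 0.40 to 1.55, unadjusted p = 0.00163, edgeR adjusted p = 0.134). No member was called in either, against 0.0535% and 0.381% of all genes, and Vdr was the 1 member with an unadjusted p under 0.05 in each, against 7.99% and 10.7% of genes. DESeq2 called Vdr in both, with adjusted p-values of 0.00261 and 0.0313. The call in Vdr-/- was also made by edgeR with genotype and replicate number as a block (1.48, adjusted p = 0.0248), and without Vdr+/+ duodenum 1 (1.46), without Vdr+/+ duodenum 4 (1.24) or without Vdr-/- kidney 1 (1.54), and that in Vdr AF2 without Vdr-/- kidney 4 (0.97).

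The residual Vdr signal in Vdr-/- mice says nothing of a working receptor. Per the annotation the last Vdr exon has 3207 bases, of which 260 are coding and 2947 are 3′ untranslated, and 3′-end libraries are known to read mainly the ends of transcripts. The demay allele is known for loss of the second zinc finger, which is encoded upstream of that exon. The deposited counts carry no read positions, so where the residual reads lie was not tested, and Vdr checks the labels only through its level. No annotated gene overlaps Vdr.

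Other values moved beside Vdr. The 7 enterocyte markers summed to 8825 to 12273 CPM in Vdr-/-, 8500 to 12948 CPM in Vdr AF2 and 8698 to 18345 CPM in Vdr+/+ duodenum, and 0 of 7 passed the test in any genotype comparison. All 7 had lower fitted values in each mutant than in Vdr+/+, with median log2 fold changes of -0.34 in Vdr-/- and -0.36 in Vdr AF2. Unadjusted p-values under 0.05 (edgeR) were found for 2 of 7 in Vdr-/- and 3 of 7 in Vdr AF2. Over all genes 1519 and 1564 of 13302 had such a p. Vdr+/+ 4 had the lowest enterocyte sum of its group, 8698 CPM, beside its Vdr level of 267 CPM. The 5 crypt markers summed to 2122 to 4107 CPM in Vdr-/-, 1333 to 3529 CPM in Vdr AF2 and 1238 to 2116 CPM in Vdr+/+ duodenum. Of these, 0 of 5 were called in any genotype comparison. All 5 had higher fitted values in each mutant than in Vdr+/+, with median log2 fold changes of 0.70 in Vdr-/- and 0.38 in Vdr AF2. An unadjusted p under 0.05 (edgeR) was reached by 4 of 5 in Vdr-/- and 2 of 5 in Vdr AF2. Over all genes 1519 and 1564 of 13302 reached it. The 6 smooth muscle markers summed to 444 to 573 CPM in Vdr-/-, 589 to 774 CPM in Vdr AF2 and 394 to 627 CPM in Vdr+/+ duodenum. While 0 of 6 were called, in Vdr AF2 duodenum 5 of 6 against Vdr+/+ and 6 of 6 against Vdr-/- had an unadjusted p under 0.05 (edgeR). The median log2 fold changes over the 6 markers were 0.50 and 0.58. In these comparisons 1564 and 1328 of 13302 genes had such a p. In kidney the proximal tubule markers summed to 4444 to 5231 CPM in Vdr-/-, 4368 to 5033 CPM in Vdr AF2 and 4914 to 5821 CPM in Vdr+/+ libraries, with 0 of 5 called. Against Vdr+/+, 1 of 5 had a higher fitted value in Vdr-/- and 0 of 5 in Vdr AF2. The median log2 fold changes were -0.23 and -0.24. Unadjusted p-values under 0.05 (edgeR) were found for 1 of 5 and 2 of 5, and for 1424 and 1954 of 13502 genes. The thick ascending limb markers Umod and Slc12a1 summed to 2861 to 3630 CPM in Vdr-/-, 3334 to 3909 CPM in Vdr AF2 and 2198 to 2894 CPM in Vdr+/+ kidneys, and both were called higher in Vdr AF2 than in Vdr+/+ kidney. Slc12a1 was also called higher in Vdr-/- than in Vdr+/+ kidney (0.45, edgeR adjusted p = 0.0356). The distal convoluted tubule marker Calb1 was called lower in Vdr AF2 than in Vdr-/- kidney (-0.69), 1 of 4 such markers. The part of these markers in the Vdr values was not tested, and in whole tissue fewer cells of a type and less RNA per cell cannot be told apart.

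With library runs as a block, which compares libraries within a run, Vdr fell by 1.61 on the log2 scale in Vdr-/- duodenum, by 3.45 in Vdr-/- kidney and by 1.28 in Vdr AF2 kidney, all called by edgeR. The comparisons of Vdr AF2 with Vdr-/- lost their call there (1.20, edgeR adjusted p = 0.0523 in duodenum and 2.17, edgeR adjusted p = 0.0555 in kidney). No run holds both mutants, so that fit reaches this comparison only through the Vdr+/+ libraries of each run.

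Over both tissues on 1 common scaling, mean Vdr levels ran in the order Vdr+/+ duodenum (483 ± 153 CPM), Vdr AF2 duodenum (389 ± 32.5 CPM), Vdr+/+ kidney (205 ± 17.8 CPM), Vdr-/- duodenum (107 ± 8.99 CPM), Vdr AF2 kidney (83.8 ± 12.3 CPM) and Vdr-/- kidney (17.7 ± 6.68 CPM). Of the 5 neighbouring pairs in this order, 2 had overlapping ranges: the first pair, and Vdr-/- duodenum with Vdr AF2 kidney. The highest mean was 27.4 times the lowest. For the other members that ratio was 1.32 (Ncoa1) to 2.67 (Ncor1), and all 5 neighbouring pairs overlapped for each of them but Ncor1, which had 3 overlapping pairs.

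The other 7 members did not change with genotype at the threshold used. Over 7 genes and 6 comparisons there were 42 tests, of which 0 had an adjusted p under 0.05 and 2 an unadjusted p under 0.05, both for Ncor1 in kidney. Fitted log2 fold changes lay between -0.26 and 0.30, and the 95% intervals reached from -0.56 to 0.64, so every interval lay within a 2-fold change either way. DESeq2, limma-voom and all other settings tried called none of them in these comparisons.

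**Figure D2:**
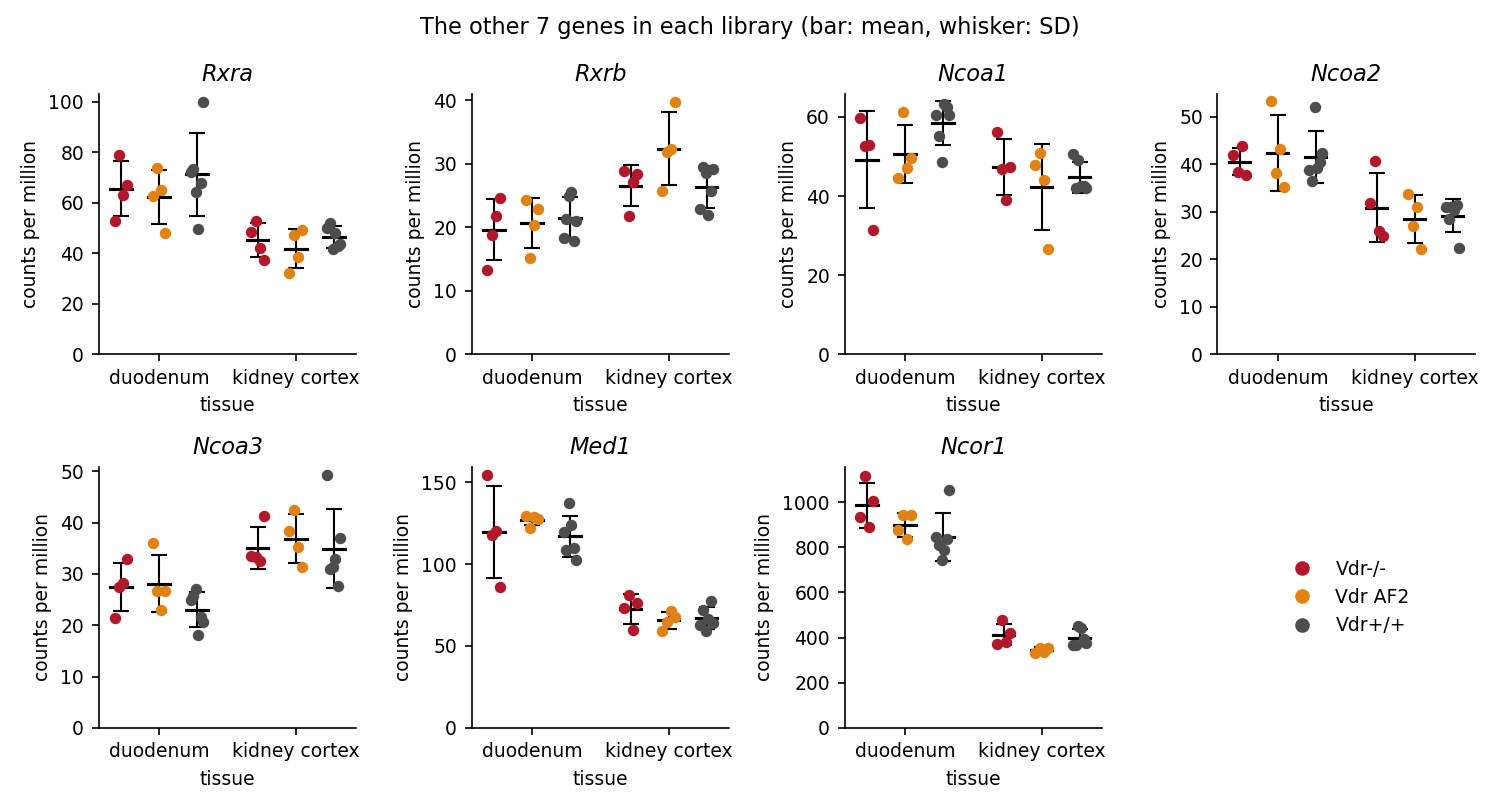
Levels of the 7 other members in CPM in each library (points) by tissue and genotype, with mean (bar) and SD (whisker); each panel has its own axis from 0, and n = 4 Vdr-/-, 4 Vdr AF2 and 6 Vdr+/+ per tissue. Genotypes overlap within a tissue in every panel except Ncor1 in kidney, where the Vdr AF2 libraries (331 to 354 CPM) lie below the rest. Of all genes, 4.73% lacked overlap between Vdr AF2 and Vdr+/+ kidney and 7.16% between Vdr AF2 and Vdr-/- kidney.

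Of the heterodimer partners, Rxra (chromosome 2, 27676440 to 27762957, plus strand) encodes the retinoid X receptor alpha. In duodenum it was at 52.7, 79.1, 63.2 and 67.1 CPM in Vdr-/- 1 to 4 and at 62.8, 73.7, 64.9 and 48.0 CPM in Vdr AF2 1 to 4. The Vdr+/+ libraries had 49.8 CPM at the lowest, 70.1 CPM at the median and 99.8 CPM at the highest, so the groups overlapped. The log2 fold changes against Vdr+/+ were -0.12 (95% interval -0.45 to 0.20) in Vdr-/- and -0.19 (-0.52 to 0.14) in Vdr AF2 duodenum. In kidney Rxra averaged 45.1 ± 6.76 CPM in Vdr-/-, 41.8 ± 7.84 CPM in Vdr AF2 and 46.4 ± 4.24 CPM in Vdr+/+ libraries (SD, n = 4, 4 and 6), with intervals of -0.33 to 0.24 and -0.43 to 0.14.

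Rxrb (chromosome 17, 34031812 to 34038399, plus strand) encodes the retinoid X receptor beta. Its duodenal means were 19.6 ± 4.85 CPM in Vdr-/-, 20.6 ± 3.96 CPM in Vdr AF2 and 21.5 ± 3.20 CPM in Vdr+/+ libraries (SD, n = 4, 4 and 6). In kidney it stood at 28.8, 21.8, 27.1 and 28.4 CPM in Vdr-/- 1 to 4 and at 25.7, 31.8, 32.3 and 39.7 CPM in Vdr AF2 1 to 4, against 22.0 to 29.5 CPM in Vdr+/+ libraries. Of the Vdr AF2 kidneys, 3 lay above all Vdr+/+ kidneys and 1 lay among them, and the highest was the library that stood apart. The log2 fold change was 0.30 with a 95% interval of -0.01 to 0.62 and did not pass (unadjusted p = 0.0592, edgeR adjusted p = 0.374). Without that library it was 0.18 (edgeR adjusted p = 0.741).

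Among the p160 coactivators, Ncoa1 (chromosome 12, 4247362 to 4477182, minus strand) had duodenal means of 49.2 ± 12.3 CPM in Vdr-/-, 50.6 ± 7.34 CPM in Vdr AF2 and 58.5 ± 5.58 CPM in Vdr+/+ libraries (SD, n = 4, 4 and 6). Vdr-/- 4 stood at 31.5 CPM and the other 3 libraries between 52.7 and 59.9 CPM, within the Vdr+/+ range of 48.7 to 63.4 CPM. The log2 fold changes were -0.25 (95% interval -0.56 to 0.07) and -0.21 (-0.52 to 0.11), and neither passed. In kidney the Ncoa1 means were 47.3 ± 7.02 CPM in Vdr-/-, 42.4 ± 10.9 CPM in Vdr AF2 and 44.8 ± 3.96 CPM in Vdr+/+ libraries (SD, n = 4, 4 and 6). The lowest Vdr AF2 kidney, 26.6 CPM, was again the library that stood apart, and without it the log2 fold change against Vdr+/+ was 0.08, against -0.09 with it, neither called.

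Ncoa2 (chromosome 1, 13139105 to 13374083, minus strand) was nearly level across genotypes. Its duodenal means were 40.6 ± 2.88 CPM in Vdr-/-, 42.5 ± 7.99 CPM in Vdr AF2 and 41.6 ± 5.48 CPM in Vdr+/+ libraries (SD, n = 4, 4 and 6). Its kidney means were 30.9 ± 7.25, 28.5 ± 5.03 and 29.2 ± 3.48 CPM in the same groups. The log2 fold changes against Vdr+/+ ran from -0.04 to 0.08 over both tissues, with intervals between -0.38 and 0.41.

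Ncoa3 (chromosome 2, 165992636 to 166073242, plus strand) leaned the other way in duodenum, without passing. It had 21.5, 27.4, 28.2 and 32.9 CPM in Vdr-/- 1 to 4, 36.1, 26.7, 22.9 and 26.7 CPM in Vdr AF2 1 to 4 and 18.1 to 27.1 CPM in Vdr+/+ libraries, and the groups overlapped. The log2 fold changes were 0.25 (95% interval -0.10 to 0.61) for Vdr-/- and 0.28 (-0.07 to 0.64) for Vdr AF2. Both share the Vdr+/+ libraries and so are not independent of each other. In kidney the Ncoa3 means were 35.1 ± 4.09 CPM in Vdr-/-, 36.9 ± 4.74 CPM in Vdr AF2 and 34.9 ± 7.67 CPM in Vdr+/+ libraries (SD, n = 4, 4 and 6). The highest Vdr+/+ kidney, at 49.3 CPM, was Vdr+/+ kidney 1, which differed from its group, and the next was at 37.0 CPM.

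Med1 (chromosome 11, 98152154 to 98193293, minus strand) encodes the Mediator subunit that contacts nuclear receptors. In duodenum its means were 119.7 ± 27.9 CPM in Vdr-/-, 127 ± 3.19 CPM in Vdr AF2 and 117 ± 12.6 CPM in Vdr+/+ libraries (SD, n = 4, 4 and 6). The Vdr-/- libraries spread from 86.3 to 155 CPM, on both sides of the other groups, and the Vdr AF2 libraries from 122 to 129.5 CPM. In kidney the means were 72.5 ± 9.23, 65.8 ± 5.21 and 66.9 ± 6.76 CPM in the same groups. No log2 fold change of Med1 against Vdr+/+ was beyond 0.12 in size, and the intervals ran from -0.26 to 0.38.

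Ncor1 (chromosome 11, 62316426 to 62458541, minus strand), the corepressor, was lowest in Vdr AF2 kidney, though the difference did not pass over all genes. It stood at 331, 354, 337 and 354 CPM in Vdr AF2 1 to 4 and at 372, 477, 382 and 421 CPM in Vdr-/- 1 to 4. The Vdr+/+ kidneys had 367 CPM at the lowest, 384 CPM at the median and 449 CPM at the highest. All 4 Vdr AF2 kidneys thus lay below every kidney of the other genotypes. Groups without overlap made up 4.73% of all genes for Vdr AF2 against Vdr+/+ and 7.16% against Vdr-/- kidney. Vdr and Ncor1 were the 2 of 8 members without overlap in each of these comparisons.

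The Ncor1 log2 fold change in kidney was -0.22 for Vdr AF2 against Vdr+/+ (95% interval -0.42 to -0.01, unadjusted p = 0.0387, edgeR adjusted p = 0.302) and -0.26 for Vdr AF2 against Vdr-/- (-0.49 to -0.04, unadjusted p = 0.0214, edgeR adjusted p = 0.34). Unadjusted p-values under 0.05 were reached by 14.5% and 11.5% of all genes in these comparisons. Within runs, that is with the library runs as a block, the values were -0.16 and -0.05 (edgeR adjusted p = 0.69 and 0.994). The part of the thick ascending limb markers given above in the Ncor1 values was not tested. In duodenum Ncor1 averaged 985 ± 99.1 CPM in Vdr-/-, 899 ± 53.1 CPM in Vdr AF2 and 845 ± 107.8 CPM in Vdr+/+ libraries (SD, n = 4, 4 and 6), and the groups overlapped. The duodenal log2 fold changes were 0.22 (95% interval -0.01 to 0.45, unadjusted p = 0.0567) and 0.09 (-0.14 to 0.32).

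Side by side, the medians over the 7 members other than Vdr lay between -0.11 and 0.05 in the 6 genotype comparisons, and those over all genes were 0.00 in each. In duodenum the median log2 fold change was -0.03 for Vdr-/- against Vdr+/+ and 0.04 for Vdr AF2 against Vdr+/+. In kidney it was 0.05 and -0.04. For Vdr AF2 against Vdr-/- it was 0.04 in duodenum and -0.11 in kidney, the farthest from 0. The mutant groups share their Vdr+/+ libraries, so these values are not independent.

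**Figure D3:**
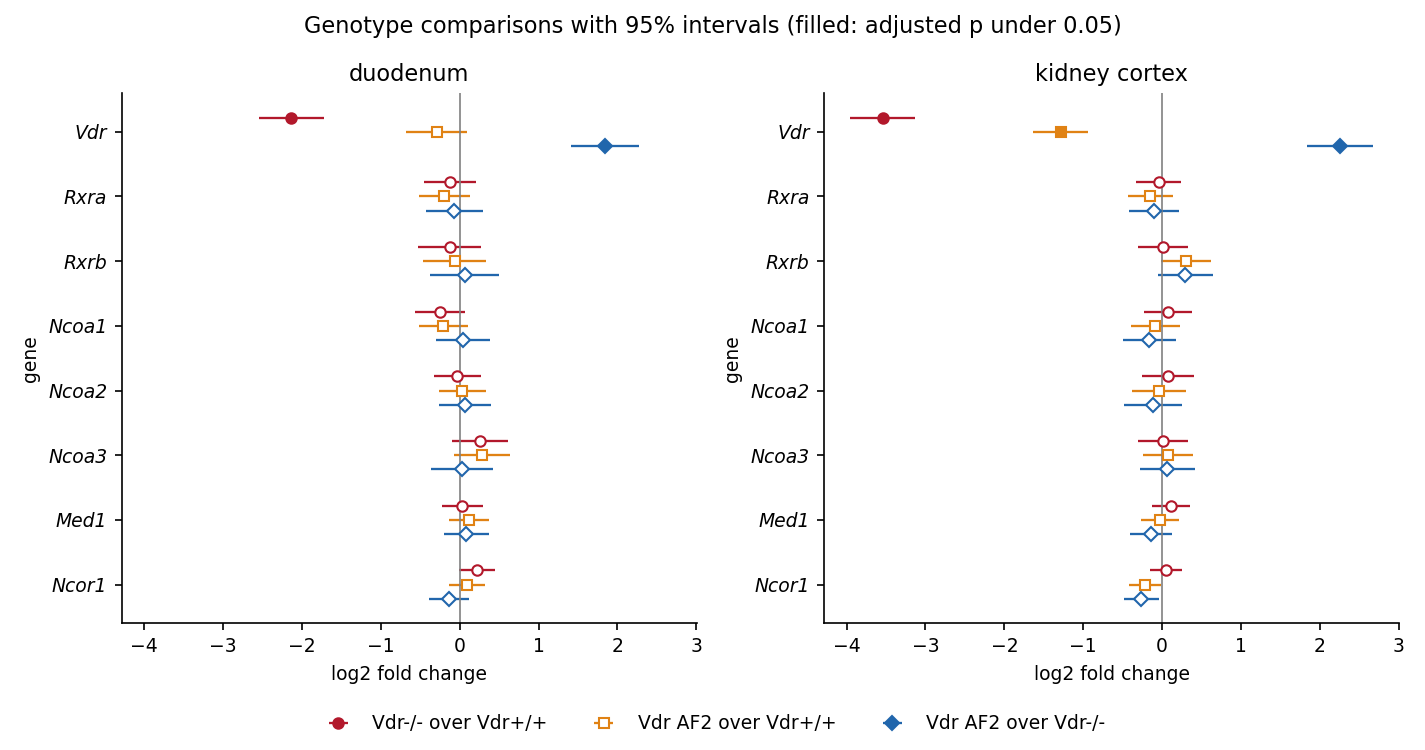
Log2 fold change (x axis) of the 8 members (y axis) with 95% intervals in duodenum (left) and kidney cortex (right); circles are Vdr-/- over Vdr+/+, squares Vdr AF2 over Vdr+/+ and diamonds Vdr AF2 over Vdr-/-, filled where the edgeR adjusted p was under 0.05. Vdr is the member with filled symbols, and every interval of the other 7 lies between -0.56 and 0.64.

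More members differed between tissues than between genotypes. In Vdr+/+ mice all 8 members differed between duodenum and kidney, 6 of them higher in duodenum (Vdr, Rxra, Ncoa1, Ncoa2, Med1 and Ncor1) and 2 lower (Rxrb and Ncoa3). This has to be read against a background in which 69.9% of all genes were called, 35.7% higher and 34.3% lower. In Vdr-/- mice 6 of 8 members were called (4 higher, 2 lower) against 61.5% of genes (31.2% higher, 30.3% lower), and in Vdr AF2 mice 7 of 8 (5 higher, 2 lower) against 63% of genes (32% higher, 31.1% lower). Members with groups that did not overlap numbered 3, 4 and 5 in Vdr-/-, Vdr AF2 and Vdr+/+ mice, against 56.9%, 55.7% and 48.9% of genes.

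Vdr was higher in duodenum than in kidney in each genotype. The log2 fold change was 2.61 ± 0.24 in Vdr-/-, 2.21 ± 0.23 in Vdr AF2 and 1.24 ± 0.18 in Vdr+/+ mice (SE), with edgeR adjusted p-values of 1.23e-10, 9.28e-10 and 4.01e-07. On the common scaling the Vdr+/+ duodenum had 258 to 642 CPM and the Vdr+/+ kidney 182 to 223 CPM, with no overlap.

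The retinoid X receptors went in opposite directions. Rxra averaged 70.7 ± 17.1 CPM in Vdr+/+ duodenum and 48.1 ± 4.69 CPM in Vdr+/+ kidney (SD, n = 6 each), and the log2 fold change was 0.56 ± 0.14 (SE, edgeR adjusted p = 0.00068). Rxrb averaged 21.2 ± 2.89 CPM in Vdr+/+ duodenum and 27.3 ± 3.57 CPM in Vdr+/+ kidney (SD, n = 6 each), and the log2 fold change was -0.36 ± 0.15 (SE, edgeR adjusted p = 0.0356). In both genes the ranges of the tissues overlapped. The same signs were called in Vdr-/- mice (0.44 and -0.53) and in Vdr AF2 mice (0.50 and -0.74).

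The p160 coactivators also split. Ncoa3 had 17.4 to 26.5 CPM in Vdr+/+ duodenum and 28.7 to 51.1 CPM in Vdr+/+ kidney, without overlap, and a log2 fold change of -0.66 ± 0.15 (SE, edgeR adjusted p = 0.00018). The 51.1 CPM was that of Vdr+/+ kidney 1, which differed from its group, and the next highest was 38.4 CPM. The Ncoa3 call in Vdr+/+ mice held under all 35 alternatives, with values of -0.72 to -0.56. Ncoa2 had 37.6 to 50.1 CPM in Vdr+/+ duodenum and 23.3 to 32.6 CPM in Vdr+/+ kidney, again without overlap, and a log2 fold change of 0.43 ± 0.14 (SE, edgeR adjusted p = 0.00509). Ncoa1 had 46.9 to 62.2 CPM and 43.6 to 52.4 CPM in the same groups, with overlap, and a log2 fold change of 0.32 ± 0.14 (SE, edgeR adjusted p = 0.0438). Ncoa3 was called lower in duodenum in both mutants too (-0.45 in Vdr-/-, -0.48 in Vdr AF2), Ncoa2 was called higher in Vdr AF2 (0.49) but not in Vdr-/- mice (0.30), and Ncoa1 was called in neither mutant (-0.04 and 0.18).

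Med1 and Ncor1 were higher in duodenum than in kidney in all 3 genotypes. Med1 had 102 to 132 CPM in Vdr+/+ duodenum and 60.6 to 80.1 CPM in Vdr+/+ kidney, a log2 fold change of 0.73 ± 0.11 (SE, edgeR adjusted p = 1.75e-07). Ncor1 had 716 to 1048 CPM in Vdr+/+ duodenum and 382 to 462 CPM in Vdr+/+ kidney, a log2 fold change of 1.02 ± 0.09 (SE, edgeR adjusted p = 3.46e-12). Neither gene's tissue ranges overlapped in Vdr+/+ mice. In Vdr-/- mice the log2 fold changes were 0.62 and 1.15, and in Vdr AF2 mice 0.86 and 1.30, all called.

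**Figure D4:**
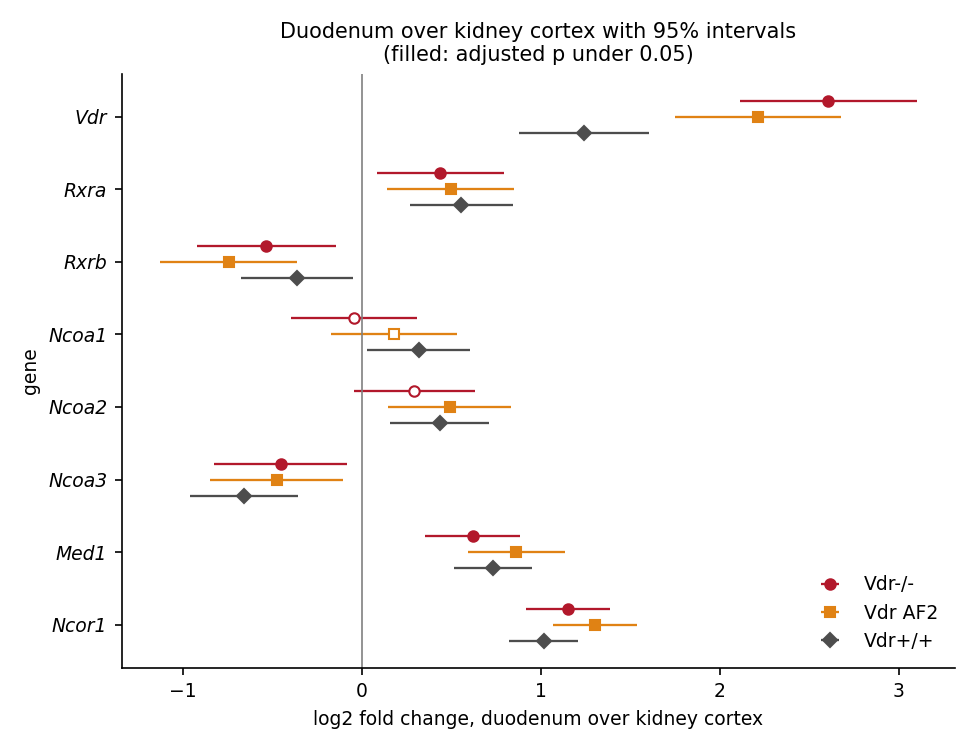
Log2 fold change of duodenum over kidney cortex (x axis) for the 8 members (y axis) with 95% intervals; circles are Vdr-/-, squares Vdr AF2 and diamonds Vdr+/+ mice, filled where the edgeR adjusted p was under 0.05. Rxrb and Ncoa3 lie left of 0 in all 3 genotypes, and Vdr, Rxra, Ncoa2, Med1 and Ncor1 lie right of it.

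Several of the smaller tissue calls rest on single libraries or on the processing. With no filter on low counts the calls of Rxrb (-0.35) and Ncoa1 (0.32) in Vdr+/+ mice and of Rxra in Vdr-/- mice (0.40) were lost, and that of Ncoa1 was also lost with relative log expression size factors (0.29) and by DESeq2 (0.29). In Vdr+/+ mice the Rxrb call was lost without duodenum 1, 5 or 6 or kidney 2, 3 or 6 (-0.36 to -0.32). The Ncoa1 call was lost without any of duodenum 1, 2, 4, 5 and 6, Vdr+/+ kidney 2, 4, 5 and 6, Vdr-/- kidney 1 and Vdr AF2 kidney 1 (0.29 to 0.32). In Vdr-/- mice Rxra lost its call without duodenum 2 (0.34) or 4 (0.43) or kidney 3 (0.41) or 4 (0.36), Rxrb without duodenum 1 (-0.38), and Ncoa3 without duodenum 1 (-0.35) or 2 (-0.45) or kidney 4 (-0.37), whereas Ncoa2 was called without kidney 2 (0.46). In Vdr AF2 mice Rxra lost its call without duodenum 2 (0.39) or kidney 1 (0.39), Ncoa2 without duodenum 1 (0.37) or kidney 4 (0.38), and Ncoa3 without duodenum 3 (-0.39) or 4 (-0.45) or kidney 2 (-0.40). The calls of Vdr, Med1 and Ncor1 held in all 3 genotypes under all 35 alternatives run.

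Annotated neighbours touch some of these rows, and the sources used here do not say whether counting used the strand, so reads of a gene and of its opposite-strand partner cannot be told apart. The last exon of Ncoa3 shares 154 bases with Sulf2 on the minus strand, and Sulf2 averaged 228 ± 44.1 CPM in Vdr+/+ duodenum and 20.1 ± 4.16 CPM in Vdr+/+ kidney (SD, n = 6 each), the opposite tissue order to Ncoa3. All 1605 bases of the last Ncor1 exon lie inside Ttc19 on the plus strand, and Ttc19 averaged 44.2 ± 7.91 CPM in Vdr+/+ duodenum and 24.9 ± 3.43 CPM in Vdr+/+ kidney (SD, n = 6 each), the same tissue order as Ncor1. In kidney Ttc19 averaged 28.4 ± 4.09 CPM in Vdr AF2 and 24.9 ± 3.43 CPM in Vdr+/+ libraries (SD, n = 4 and 6), the opposite order to Ncor1. In Vdr-/- kidney Ttc19 averaged 28.9 ± 4.02 CPM (SD, n = 4), slightly above Vdr AF2, the same order as Ncor1. These last exons are those of the transcript with the longest coding sequence. At the annotated 3′ end of Ncoa1, 310 bases are shared with 4921501I09Rik on the plus strand. Ncoa2 overlaps 8 annotated genes, 7 of them on its own strand, and 0 of them overlap its last exon. The part of these overlaps in the member values was not tested.

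Genes related to the members were set beside them in 4 lists: nuclear receptors that pair with or compete for retinoid X receptors, further coactivators and chromatin remodellers, Mediator subunits, and corepressors. After the filter 14, 16, 31 and 17 of their 16, 16, 32 and 17 genes were tested in duodenum, with 1 corepressor fewer in kidney. In duodenum 0 genes of each list were called in any genotype comparison, and in kidney the same held except for Med14. Over all genes 0.0226%, 0.0677% and 0.015% were called in duodenum and 0.844%, 2.71% and 0.333% in kidney, so nothing is read from the absence of calls. The list medians of the log2 fold change lay between -0.12 and 0.15 over the 6 genotype comparisons, where the median over all genes was 0.00 in each. In the 2 tests of the difference between tissues 0 list genes were called.

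Med14, the subunit that links the Mediator modules, fell in Vdr AF2 kidney. It averaged 26.8 ± 8.66 CPM in Vdr AF2 and 46.7 ± 6.64 CPM in Vdr+/+ kidneys (SD, n = 4 and 6), with overlapping ranges, and the log2 fold change was -0.80 ± 0.17 (SE, edgeR adjusted p = 0.00512). In Vdr-/- kidney it averaged 32.6 ± 4.63 CPM (SD, n = 4) and the log2 fold change against Vdr+/+ was -0.51 (95% interval -0.85 to -0.17, edgeR adjusted p = 0.168). It was 1 of 31 Mediator subunits called in Vdr AF2 kidney, where 2.71% of all genes were called. With library runs as a block the call was lost (-0.84, edgeR adjusted p = 0.0794).

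Between tissues the lists split in both directions, as did all genes, of which 69.9% were called in Vdr+/+ mice (35.7% higher, 34.3% lower). In Vdr+/+ mice 7 of 15 retinoid X receptor partners were higher and 4 lower in duodenum, led by Ppard, a fatty acid receptor (110.2 ± 11.8 CPM in duodenum, 10.7 ± 2.59 CPM in kidney), and by the xenobiotic receptors Nr1i3 (52.2 ± 8.43 CPM in duodenum, 0.936 ± 0.874 CPM in kidney) and Nr1i2 (79.9 ± 12.1 CPM in duodenum, 9.36 ± 2.36 CPM in kidney). Of 16 coactivators and remodellers 7 were higher and 5 lower. Ncoa7 (63.6 ± 15.98 CPM in duodenum, 258 ± 31.2 CPM in kidney) and Smarca2, an ATPase of chromatin remodelling (94.2 ± 18.8 CPM in duodenum, 268 ± 21.0 CPM in kidney), were lower in duodenum, and Ppargc1b, a coactivator of mitochondrial genes (144 ± 16.4 CPM in duodenum, 49.0 ± 5.95 CPM in kidney), was higher. Of 17 corepressors 9 were higher and 3 lower, with the ligand-dependent corepressors Lcor (203 ± 9.67 CPM in duodenum, 51.9 ± 7.01 CPM in kidney) and Nrip1 (294 ± 18.1 CPM in duodenum, 120.4 ± 15.05 CPM in kidney) and the atypical receptor Nr0b2 (14.7 ± 5.45 CPM in duodenum, 1.34 ± 1.07 CPM in kidney) among the higher. Of 31 Mediator subunits 6 were higher and 9 lower, Med15 (76.5 ± 6.21 CPM in duodenum, 29.5 ± 4.12 CPM in kidney), Med13 (154 ± 16.1 CPM in duodenum, 86.6 ± 8.61 CPM in kidney) and Med19 (63.1 ± 6.32 CPM in duodenum, 34.0 ± 3.88 CPM in kidney) among the higher. Median log2 fold changes were 0.86, 0.11, 0.54 and -0.20 for the retinoid X receptor partners, coactivators, corepressors and Mediator subunits, beside 0.01 over all genes. Errors in this paragraph are SDs over 6 libraries per tissue.

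Patterns over the 6 groups of tissue and genotype were compared by the root mean square difference of centred mean log2 CPM. The 5 of 14944 genes nearest to Vdr were Ppp1r3b (0.79), a glycogen-targeting phosphatase subunit, Nr1d1 (0.84), a circadian nuclear receptor, Tnfaip3 (0.85), an inhibitor of inflammatory signalling, Mcub (0.87), a subunit of the mitochondrial calcium uniporter, and Chrdl1 (0.87), an antagonist of bone morphogenetic proteins. Among the members themselves Rxra and Ncoa2 were nearest to each other (0.08), as were Rxrb and Ncoa3 (0.14). The nearest member to Ncoa1 was Ncoa2 (0.16), to Med1 it was Rxra (0.16) and to Ncor1 it was Med1 (0.23). The nearest member to Vdr was Ncor1, at 1.37. Even Ppp1r3b, at 0.79, was farther from Vdr than any other member was from its nearest member (0.08 to 0.23). The 5 genes thus resembled the Vdr pattern only loosely. The 6 groups share libraries with the comparisons above, so this is a description.

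**Figure D5:**
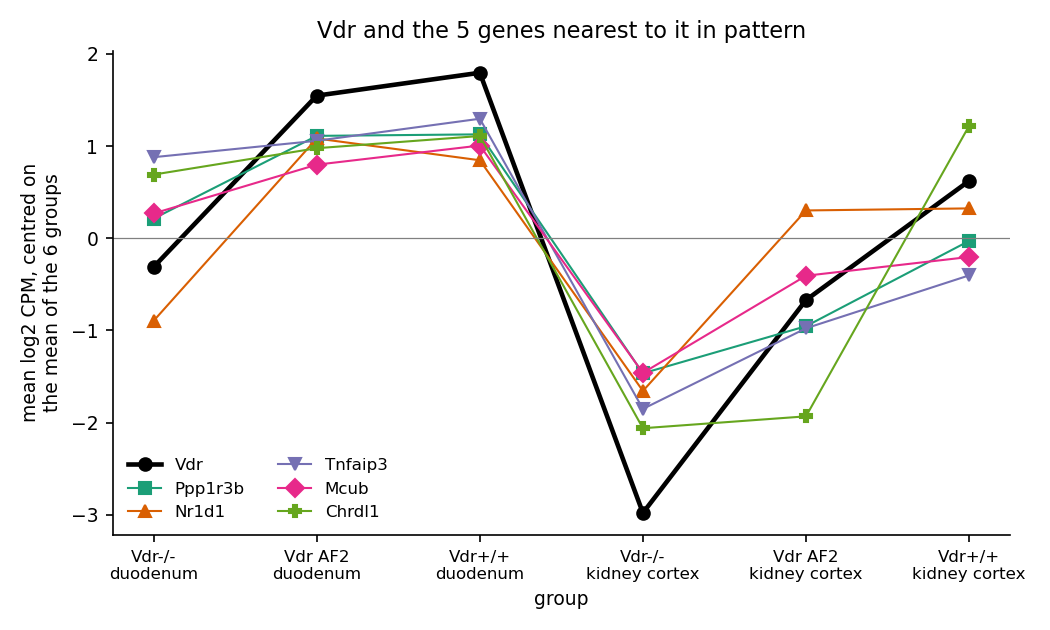
Mean log2 CPM of Vdr (thick line) and of the 5 genes nearest to it (thin lines) in the 6 groups of genotype and tissue (x axis), each centred on its mean over the groups (y axis). All 6 genes are lowest in Vdr-/- kidney, and Vdr has the widest range, from -2.98 to 1.80.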

How the data were processed

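Each tissue has a deposited table of unscaled counts by gene symbol, with 1 column per library, per the file headers. The submitters' processing notes name mm10 and limma 3.34.9. The aligner, counter, use of strand and handling of shared reads are not stated there (not given in the sources used here). All counts were even, which would follow if reads were counted 2 times; the cause was not tested. Columns were matched to samples by library code. No pair of libraries was identical.

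Genes were filtered by filterByExpr, scaled by TMM and tested with edgeR 4.0.16 (R 4.3.3) by its quasi-likelihood test with robust dispersion (two-sided) on the 14 libraries of a tissue (13302 genes in duodenum, 13502 in kidney) or on all 28 (14944 genes). Calls needed a p under 0.05 after Benjamini-Hochberg adjustment across the tested genes. All 8 members passed the filter. The main tests used counts as deposited. Alternatives used DESeq2 1.42.0, limma 3.58.1, halved counts, other filters, scalings, blocks and left-out libraries. The refit with halved counts changed no member call. Steps were tested on simulated data. Named genes were the members, up to 3 called genes of each list per comparison by smallest p, and the 5 genes nearest to Vdr. For tissue differences those named are from Vdr+/+ mice. The members and lists were chosen with earlier results of these data known. Of the symbols, 97.2% and 97.3% matched GENCODE vM21. The result of 1 kidney marker list is not reported here.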

Additional observations from a re-analysis of the deposited data

Results flagged for a closer look

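Of 48 sets of member levels (8 genes in 6 groups), 3 had a highest or lowest library far from the rest by Dixon's criterion, which chance gives in about 1 of 20 sets. Ncor1 was at 1052 CPM in duodenum of Vdr+/+ 6, the highest of 6 libraries. Ncoa2 was at 22.4 CPM in kidney of Vdr+/+ 6, the lowest of 6. Ncoa3 was at 41.2 CPM in kidney of Vdr-/- 4, the highest of 4. Among library totals, Vdr+/+ 2 of duodenum stood apart with 25181916 counts.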

How the results depend on the processing

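Of 2456 refits of member values, 2387 stayed called, or stayed not called within 1 standard error of the reported value, 22 moved further without a call, 39 lost a call, 8 gained one and 0 called values changed sign. With library runs as a block the members called for Vdr AF2 against Vdr-/- were 0 in duodenum and 0 in kidney. In the test of the Vdr-/- effect between tissues, 1 member (Vdr) was called by DESeq2 and by the fit with genotype and replicate number as a replicate block (1.48, edgeR adjusted p = 0.0248). In that of the Vdr AF2 effect 1 member (Vdr) was called by DESeq2. Leaving out each library gave 0 to 1 members in both. For duodenum over kidney it gave 4 to 7 members in Vdr-/-, 6 to 7 in Vdr AF2 and 6 to 8 in Vdr+/+ mice. It gave 1 in each genotype comparison but Vdr AF2 against Vdr+/+ duodenum, with 0.

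Counts over all genes moved more. Alternatives other than leaving out a library gave 1 to 215 genes for Vdr-/- (3 reported) and 0 to 240 for Vdr AF2 (9 reported) against Vdr+/+ in duodenum, and 25 to 252 (114) and 121 to 590 (366) in kidney. For Vdr AF2 against Vdr-/- they gave 2 to 106 in duodenum (2) and 1 to 193 in kidney (45). For the differences between tissues they gave 2 to 67 (8) and 36 to 187 (57). Leaving out each library gave, in the same order, 1 to 229, 0 to 217, 38 to 206, 294 to 365, 1 to 4, 22 to 78, 0 to 23 and 19 to 123. The alternatives for list genes were chosen after seeing the data. The cause was not tested.

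Within a tissue, replicate numbers did not pair samples of different genotypes. Same-numbered libraries correlated at -0.20 to 0.10 in duodenum and -0.04 to 0.17 in kidney, and 1 of 12 pairs in each exceeded 0.1. Across tissues the own-number correlations of the 14 libraries were -0.05 to 0.07. Of them 10, at 0.01 to 0.07, were the best of their library, a hint of pairing from the data only. Without pairing, each number of a genotype would be equally likely to be the best. With 4 numbers in each mutant and 6 in Vdr+/+ mice, fewer than 10 would then be the best of their library. The main fit of all 28 libraries treated them as independent and did not use such pairing. The replicate block changed no other member count. The depth limits Vdr most in Vdr-/- kidney, with 42 to 116 counts.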
